A study of Mus musculus with 6 samples.

Results

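The PGC-1 coactivators, the estrogen-related receptors (ERRs), the peroxisome proliferator-activated receptors PPARα and PPARδ, and the coregulators PRDM16 and RIP140 were followed in brown fat as 10 genes taken from a list of symbols. These were Ppargc1a, Ppargc1b, Pprc1, Esrra, Esrrb, Esrrg, Ppara, Ppard, Prdm16 and Nrip1 (the gene of RIP140), each found as 1 row among the 54385 rows of the deposited count table. Polyadenylated RNA had been sequenced from interscapular brown fat of C57BL/6N mice, all 20 weeks old and all fed chow. There were 3 libraries of wild type (genotype wt/wt, WT) and 3 of ADCY3∆AT mice, in which Adcy3-AT, a truncated adenylyl cyclase 3, had been knocked out. Adenylyl cyclases make cyclic AMP. The labels do not say how the allele was made, in which cells it acts, or whether every library had its own mouse, so p-values measure the spread between these libraries, which may be partly technical.

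The PGC-1 proteins bind no DNA themselves. They dock on nuclear receptors such as the ERRs and PPARs, and on the nuclear respiratory factors, and bring in enzymes that open chromatin, so that genes of mitochondria, fatty acid oxidation and heat production are transcribed. In brown fat, noradrenaline raises cyclic AMP, and the transcription of Ppargc1a is a well known response to it. PRDM16 holds cells in the brown fat state, and RIP140 is a corepressor that sits on the same receptors and silences many of the same oxidative genes.

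Library totals ran from 13758492 to 19592156 estimated counts. Levels are CPM, counts divided by library size and scaled by the trimmed mean of M-values (TMM). Ucp1, the uncoupling protein that defines brown fat, stood at 4786 ± 963 CPM (mean ± SD, n = 3) in WT and 4239 ± 231 CPM in the knockout. The summed CPM of 8 brown adipocyte markers ran from 16532 to 16948 in WT and from 14744 to 15503 in the knockout, a gap whose part in the results was not tested. It was a gap of the sum only: each of the 8 markers overlapped between genotypes and 0 were called. The row of Adcy3 held 208 ± 40.7 CPM in WT and 201 ± 36.5 CPM in the knockout, and a row without a symbol, whose identifier ends like that of Adcy3, held 215, 197 and 118 CPM in WT and 1.27, 0 and 0 CPM in the knockout. Skeletal muscle RNA differed between libraries: the summed CPM of 18 muscle markers was 71.9, 179 and 842 in WT replicates 1, 2 and 3, and 48.4, 48.8 and 50.01 in the knockout replicates, where Pvalb was at 0. Myl1 alone held 43.6, 45.0 and 47.4 CPM of the knockout sums, and without it the other 17 markers summed to 28.3, 131 and 772 CPM in WT and to 4.84, 3.79 and 2.63 CPM in the knockout. Of all 18 markers, 14 were higher in every WT library than in any knockout library. Of the 14 that passed the filter, 12 were so, beside 13.9% of all tested genes, and 7 fell in the knockout, beside 1.67%. With sums this low in the knockout, most markers could pass the filter only through their WT counts. The shares of all tested genes are therefore no fair measure for them. In whole tissue, fewer cells of a type and less RNA per cell cannot be told apart.

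All 10 regulators passed the filter on low counts, and 0 of them passed the test between genotypes at an adjusted p under 0.05 (edgeR quasi-likelihood F test, Benjamini-Hochberg over the 14332 genes tested). Over all genes tested, 616 were called, which is 4.30%. The 10 genes were chosen with earlier results of these data known, so shares of all tested genes are no independent comparison for them. With an unadjusted p under 0.05, 5 of the 10 were higher in the knockout and 0 lower, beside 12.4% of all tested genes that were higher at that level. The same 5, all 3 PGC-1 genes and both PPAR genes, had every knockout library above every WT library, a pattern that 15.1% of all tested genes showed in that direction. The other 5, all 3 ERR genes with Prdm16 and Nrip1, had libraries that overlapped between genotypes. At an adjusted p under 0.10, 2 of the 10 were called, both higher (Ppargc1a and Ppargc1b), beside 5.65% of all tested genes. The Wald test of DESeq2 called these 2 at 0.05, and limma-voom called 0. The log2 fold change (ADCY3∆AT minus WT) was above 0 for 7 of the 10 and below 0 for 3, with a median of 0.30 beside -0.01 over all tested genes.

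**Figure D1:**
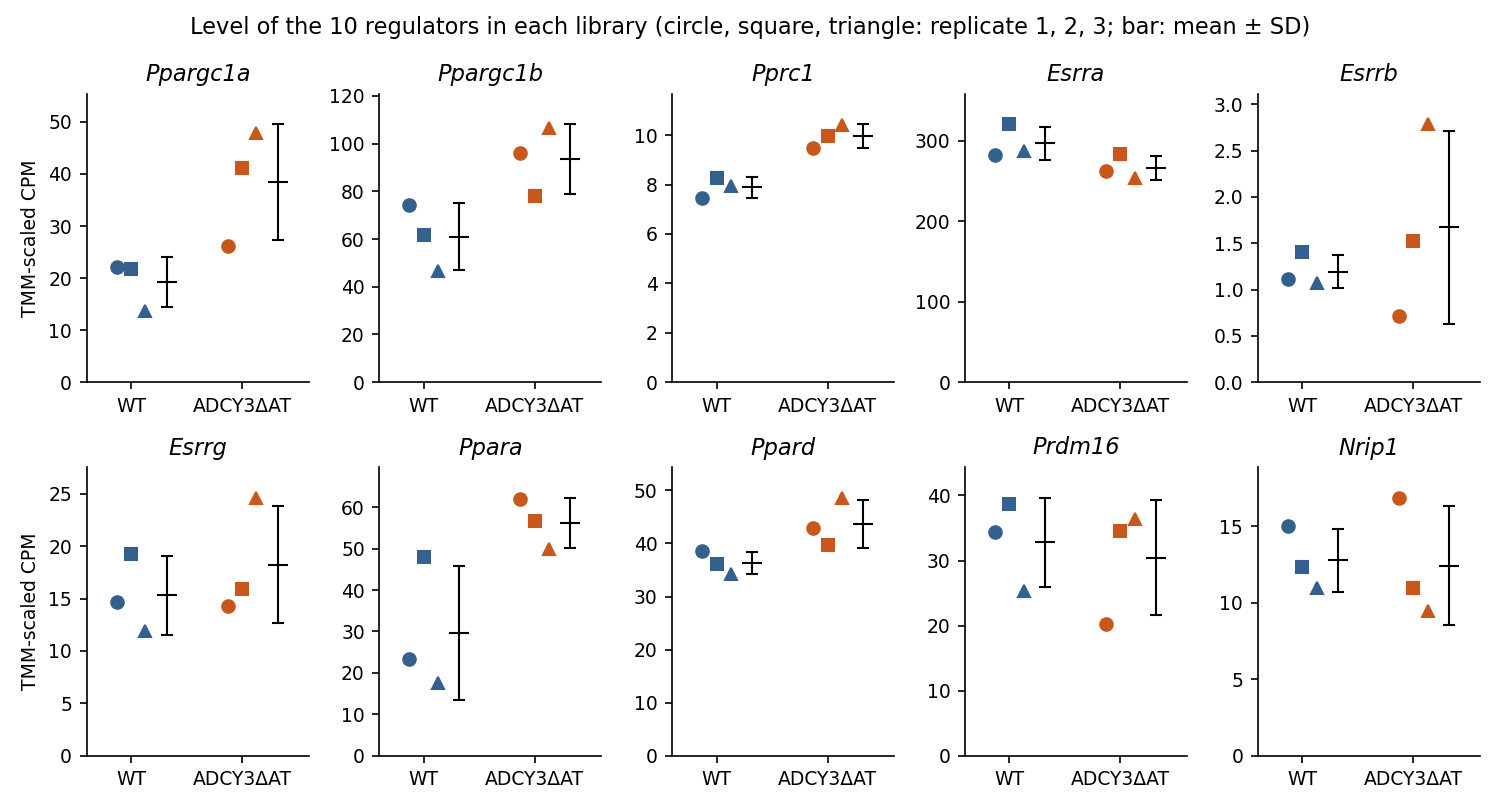
TMM-scaled CPM (vertical axes, each from 0) of the 10 regulators in the 3 WT (blue) and 3 ADCY3∆AT (orange) libraries, with symbols for the replicate number and the mean ± SD beside the points. The orange points lie above all blue points for Ppargc1a, Ppargc1b, Pprc1, Ppara and Ppard, and the colours overlap for the other 5 genes.

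Ppargc1a encodes PGC-1α, the member of the coactivator family that responds most to cold and to cyclic AMP. It lies on the minus strand of chromosome 5 from 51454250 to 51567726 (GRCm38, GENCODE M21). Its level was 22.2, 21.8 and 13.6 CPM in WT against 26.2, 41.2 and 47.9 CPM in the knockout. Every knockout library lay above every WT library, but the lowest of the knockout, replicate 1, was close to the highest of WT. The log2 fold change (ADCY3∆AT minus WT) was 1.01 (SE 0.25, 95% interval 0.44 to 1.57), or 2.01-fold, with an edgeR adjusted p of 0.0609. A two-sided exact permutation test on log2(CPM + 0.5) gave p = 0.1, the smallest that 3 against 3 libraries allow, and the same p was found for each of the other 4 members without overlap. Without knockout replicate 1, the knockout library nearest to WT, the gene was called (log2 1.23, edgeR adjusted p = 0.0165). In every other fit without 1 library it was not called (edgeR adjusted p 0.104 to 0.153), nor with robust fitting of edgeR (0.122). Without WT replicate 3, the library with the most muscle RNA and the least Ppargc1a, the log2 fold change was 0.80.

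Ppargc1b encodes PGC-1β, a coactivator of the same receptors that depends less on cold. Its level was 74.4, 61.9 and 46.6 CPM in WT and 96.1, 77.9 and 107 CPM in the knockout. The genotypes did not overlap, although WT replicate 1 and knockout replicate 2 were nearly equal. The log2 fold change was 0.62 (95% interval 0.22 to 1.02) with SE 0.17 and an adjusted p of 0.0845 in edgeR. It ran from 0.46 to 0.79 in the fits without 1 library, 0 of which called the gene.

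Pprc1 encodes PRC, the third family member, which is known as a coactivator of nuclear respiratory factor 1 in growing cells. It lies on the plus strand of chromosome 19 from 46044886 to 46072915. The 3 WT libraries held 7.44, 8.28 and 7.95 CPM and the 3 knockout libraries 9.47, 9.96 and 10.4 CPM, so both genotypes were tight and apart. The difference was small, at 0.34 on the log2 scale (SE 0.11), and edgeR gave an adjusted p of 0.125. Exons of Pprc1 share 177 bases with exons of Ldb1 on the opposite strand, which had 4860.5 estimated counts over all libraries against 894.5 for Pprc1. The labels do not say that strand was kept, so reads of the shared stretch cannot be told apart. Ldb1 itself stood at -0.18 on the log2 scale (edgeR adjusted p = 0.191).

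The stretch before the start of transcription is shown for 2 of these genes because their libraries did not overlap between genotypes and their windows hold at most 1 annotated exon base before the start. RefSeq promoters (GRCm38.p6, 250 bases before the start and 50 after) were found for 9 of the 10 genes, 14 windows in all. The windows were searched on both strands for AGGTCA, the core site of nuclear receptors, for that site repeated after 1 free base (DR1), the form that PPARs bind and that itself contains the core site, for TGACGTCA, the full cyclic AMP response element, and for TGACG, its short form, which every full element also contains. The printed windows reach from 250 bases before the start to 5 after it, 5′ to 3′ on the gene's strand, with matches in capitals. The window of Ppargc1a lies at chr5:51567721-51567975 (minus strand) and that of Pprc1, whose RefSeq start lies inside the GENCODE span of the gene, at chr19:46056289-46056543 (plus strand).
Ppargc1a: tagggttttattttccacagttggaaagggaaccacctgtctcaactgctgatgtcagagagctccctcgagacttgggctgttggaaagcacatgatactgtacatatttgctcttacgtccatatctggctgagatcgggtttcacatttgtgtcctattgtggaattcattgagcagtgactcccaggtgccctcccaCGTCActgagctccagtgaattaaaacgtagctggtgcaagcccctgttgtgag
Pprc1: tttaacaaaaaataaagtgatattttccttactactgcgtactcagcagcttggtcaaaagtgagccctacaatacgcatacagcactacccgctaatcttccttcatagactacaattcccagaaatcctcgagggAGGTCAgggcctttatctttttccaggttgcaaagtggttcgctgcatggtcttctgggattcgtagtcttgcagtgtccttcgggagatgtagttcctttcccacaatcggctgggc
The Ppargc1a window holds 1 short form of the cyclic AMP response element, CGTCA on the gene's strand, 49 bases before the start, and the Pprc1 window holds 1 receptor core site, 113 bases before the start. Over the whole set, TGACG was found in 4 of the 14 windows (Ppargc1a, Esrrb, Ppara and Ppard) and in 20.8% of all 32851 windows in the RefSeq table. AGGTCA was found in 1 of the 14 and in 16.3% of all. TGACGTCA and DR1 were found in 0 of the 14, and in 1.79% and 0.0396% of all. These matches are letters in a short window and do not show binding.

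Both PPAR genes were higher in each knockout library than in any WT library. Ppara encodes the fatty acid-sensing receptor that drives fat oxidation, and lies on the plus strand of chromosome 15 from 85734983 to 85802819. Its level was 23.3, 48.0 and 17.5 CPM in WT and 62.0, 56.7 and 49.9 CPM in the knockout. The knockout libraries were close together, while WT replicate 2 held more than 2 times the level of the other WT libraries and came near the lowest knockout library. On the log2 scale the difference was 0.93 (SE 0.32) with a 95% interval from 0.21 to 1.66, and the adjusted p in edgeR was 0.131. Without WT replicate 2, its highest WT library, Ppara was called (log2 1.47, edgeR adjusted p = 0.0105). In every other fit without 1 library it was not called (edgeR adjusted p 0.191 to 0.335), nor with robust fitting of edgeR (0.271). The log2 fold change of Ppara was 0.66 without WT replicate 3. Ppard, which encodes the PPAR isotype found in most tissues, lies on the plus strand of chromosome 17 from 28232700 to 28301474. It held 38.5, 36.1 and 34.3 CPM in WT and 43.0, 39.7 and 48.6 CPM in the knockout. These libraries were apart by little, at 0.27 on the log2 scale (SE 0.09) with an adjusted p of 0.139 in edgeR.

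Esrra encodes ERRα, an orphan receptor that acts with PGC-1α on genes of the respiratory chain and the citric acid cycle, and lies on the minus strand of chromosome 19 from 6910977 to 6921813. It held 283, 320 and 287 CPM in WT and 262, 283 and 254 CPM in the knockout. The values overlapped at the lowest WT and the highest knockout library, and the difference on the log2 scale was -0.15 with SE 0.08 (95% interval -0.33 to 0.02), for which edgeR gave an adjusted p of 0.271 and the exact permutation test p = 0.2. Exons of Esrra share 73 bases with Trmt112 on the opposite strand, which had 1045.3 estimated counts against 27788.3 for Esrra.

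Esrrg encodes ERRγ, a constitutively active relative found in oxidative tissues, on the plus strand of chromosome 1 from 187608791 to 188214885. It held 14.7, 19.3 and 11.9 CPM in WT and 14.3, 15.9 and 24.6 CPM in the knockout, where replicate 3 stood above the rest. On the log2 scale the genotypes differed by 0.27 with SE 0.24 (95% interval -0.27 to 0.80), at an adjusted p of 0.548 in edgeR, and by -0.01 without knockout replicate 3. Esrrb, whose receptor ERRβ is best known from stem cells, the inner ear and the eye, lies on the plus strand of chromosome 12 from 86361117 to 86521628. It was the least abundant of the 10, with 17, 19 and 19 estimated counts in WT and 13, 23 and 55 in the knockout. Here too knockout replicate 3 was the highest, and the log2 fold change of 0.50 with SE 0.46 (adjusted p in edgeR 0.564) became -0.10 without it.

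Prdm16 and Nrip1 differed between genotypes by less than the spread among libraries. Prdm16 lies on the minus strand of chromosome 4 from 154316125 to 154636873 and held 34.4, 38.7 and 25.3 CPM in WT and 20.3, 34.6 and 36.3 CPM in the knockout. The lowest library of all was knockout replicate 1, and the difference on the log2 scale was -0.11 (95% interval -0.63 to 0.42), at an adjusted p of 0.832 in edgeR, turning to 0.13 without that library and to 0.03 without WT replicate 2. Nrip1 lies on the minus strand of chromosome 16 from 76287400 to 76373827 and held 15.02, 12.3 and 10.9 CPM in WT and 16.8, 10.96 and 9.47 CPM in the knockout. Knockout replicate 1 was the highest here, and the genotypes differed by -0.04 on the log2 scale (95% interval -0.54 to 0.46), at an adjusted p of 0.940 in edgeR. Its sign turned without WT replicate 1 (0.10), without knockout replicate 2 (0.04) or without knockout replicate 3 (0.13). These intervals leave room for a change in either direction.

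**Figure D2:**
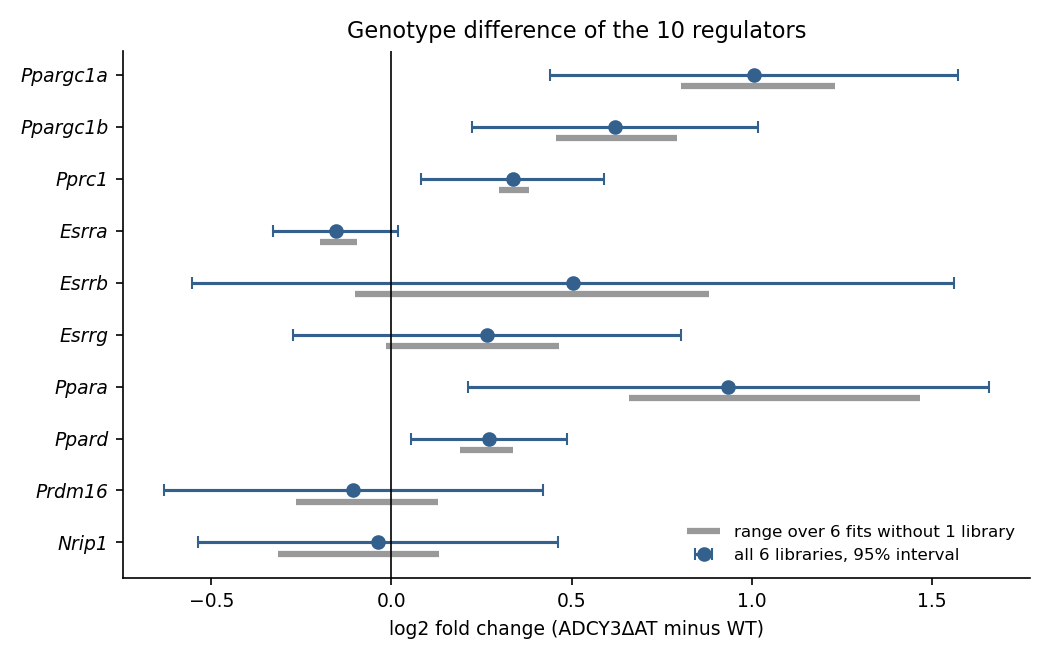
Log2 fold change (ADCY3∆AT minus WT, horizontal axis) of the 10 regulators with all 6 libraries and its 95% interval (blue), above the range over the 6 fits that each leave out 1 library (grey bar). The intervals of Ppargc1a, Ppargc1b, Pprc1, Ppara and Ppard lie above 0, and the grey bars of Esrrb, Esrrg, Prdm16 and Nrip1 cross 0.

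The libraries of 1 genotype were not alike across these genes. WT replicate 3 was the lowest WT library for 8 of the 10 regulators and the highest for 0, while over all tested genes it was the lowest for 39.2% and the highest for 36.3%. Knockout replicate 3 was the highest knockout library for 7 of the 10 (32.4% of all tested genes). WT replicate 3 is also the library with the most muscle marker RNA, and its part in the results was not tested beyond the fits without it given above.

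Levels were compared between genes as CPM per kilobase of annotated exon. In WT, Esrra had the highest level, at 67.6 ± 4.69 CPM per kilobase (SD, n = 3), and all its libraries were above those of any other member. Ppargc1b followed with 15.3 ± 3.50 and Ppara with 7.72 ± 4.23, whose ranges over the WT libraries overlapped. Within each WT library, however, Ppargc1b was above Ppara (18.7 against 6.08, 15.5 against 12.5 and 11.7 against 4.56 CPM per kilobase). Ppara also overlapped Ppard (4.83 ± 0.281), which was above the group of Prdm16 (3.52 ± 0.735), Ppargc1a (2.91 ± 0.733) and Esrrg (2.46 ± 0.602). Neighbours in that group overlapped in range, but within each WT library Prdm16 was above Ppargc1a and Ppargc1a above Esrrg. Pprc1 (1.26 ± 0.0668) and Nrip1 (1.11 ± 0.181) overlapped each other, and Esrrb (0.198 ± 0.0301) was the lowest. In the knockout the order differed in the middle, where Ppargc1a stood 4th (5.83 ± 1.68 CPM per kilobase) beside Ppard (5.82 ± 0.601) and above Prdm16 (3.26 ± 0.947).

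Within each family 1 gene made up most of the RNA per length. Ppargc1b was 78.4 ± 1.76% (SD, n = 3) of the summed PGC-1 level in WT and 75.9 ± 5.11% in the knockout, and Ppargc1a was 14.9 ± 1.36% and 18.9 ± 4.87%. The family sum was 23.2, 20.1 and 15.003 CPM per kilobase in WT and 29.6, 27.4 and 35.6 in the knockout, without overlap. Esrra was 96.2 ± 0.637% of the ERR sum in WT and 94.9 ± 1.78% in the knockout. Among the PPARs, where Pparg, the receptor of fat cell identity, was added as the third isotype, Pparg held 83.9 ± 3.21% in WT and 74.0 ± 2.77% in the knockout. The share of Ppara was 8.65, 14.1 and 6.51% in WT and 19.4, 21.04 and 15.4% in the knockout, so that the genotypes did not overlap. Pparg itself differed by -0.12 on the log2 scale, at an adjusted p of 0.589 in edgeR. The ratio of Ppargc1a to Nrip1, coactivator to corepressor, was 2.57, 3.07 and 2.17 in WT and 2.70, 6.53 and 8.79 in the knockout per kilobase, with knockout replicate 1 inside the WT range. The shares and sums are descriptions without a test.

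**Figure D3:**
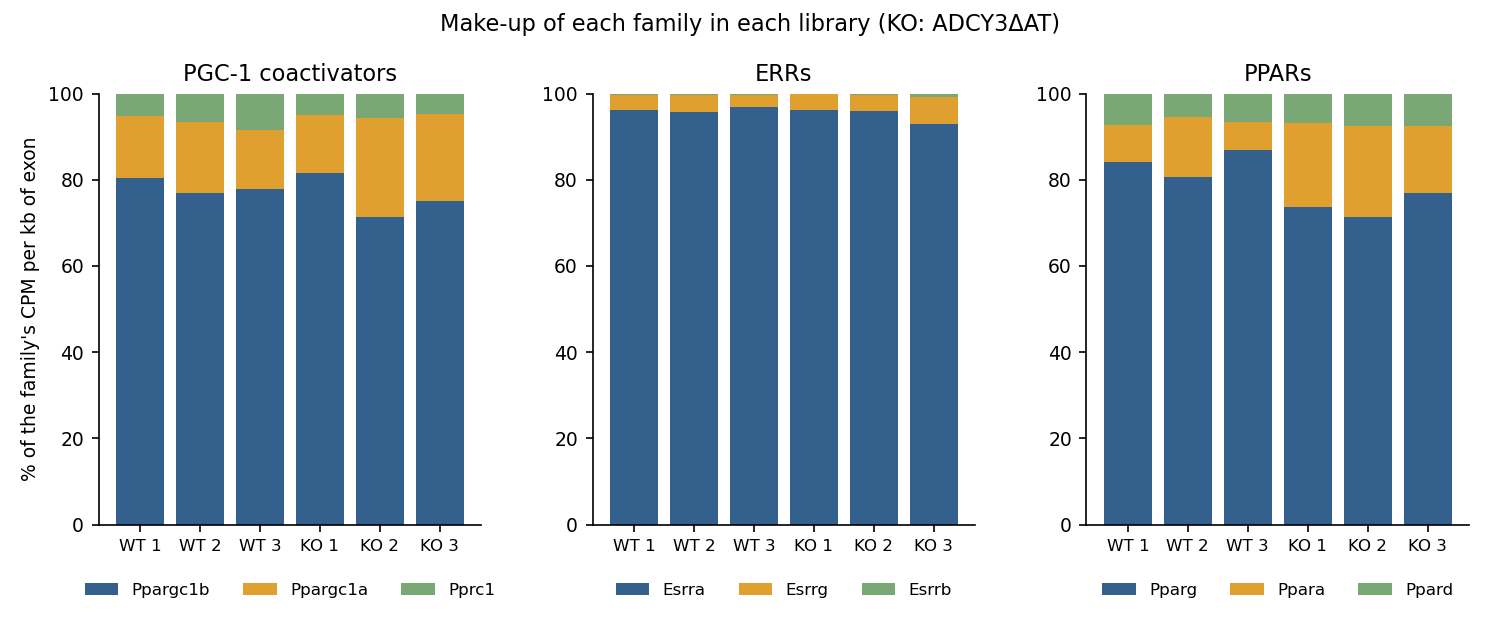
Share of each gene in its family's summed CPM per kilobase of exon (vertical axis, percent) in every WT and ADCY3∆AT (KO) library. Ppargc1b, Esrra and Pparg make up most of each bar, and the orange Ppara segment is 6.51 to 14.1% in WT and 15.4% or more in the knockout.

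The pattern most like that of Ppargc1a over the 6 libraries was looked for among 9687 genes with a mean of at least 5 CPM, by the root mean square difference of log2(CPM + 0.5) centred on each gene's mean. The 4 nearest were Hivep1 (0.14), Arhgef19 (0.14), Zscan29 (0.16) and Perm1 (0.17). Of these, Hivep1 (log2 1.07, edgeR adjusted p = 0.0250), Zscan29 (0.87, adjusted p = 0.0344) and Perm1 (0.84, adjusted p = 0.0361) passed the test between genotypes, while Arhgef19 was not called (1.04, adjusted p = 0.0885). They were picked for their likeness to a gene that differed in the same libraries, so their direction is no separate evidence. Hivep1, Zscan29 and Perm1 were each called without knockout replicate 1 and in 0 of the other 5 fits without 1 library. Perm1 is a muscle-enriched gene named for its induction by PGC-1 and ERRs.

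**Figure D4:**
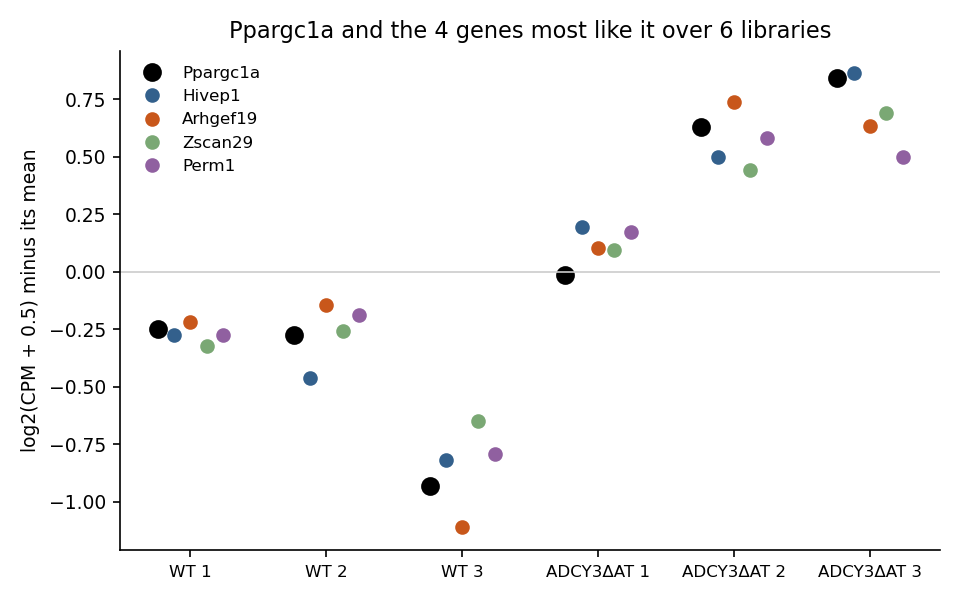
Log2(CPM + 0.5) minus the gene's mean over the 6 libraries (vertical axis) for Ppargc1a (black) and the 4 genes nearest to it, in each library (horizontal axis). All 5 genes are lowest in WT replicate 3 and higher in each knockout library than in any WT library.

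Among 29 partners and coregulators, 3 rose, 0 fell and 26 were not called, with a median log2 fold change of 0.19 (-0.01 over all tested genes). The share called was 10.3%, beside 4.30% of all tested genes. This list and those below were chosen with earlier results of these data known. Their shares set beside all tested genes are therefore no independent comparison. Perm1 rose 1.79-fold, from 24.8, 26.4 and 17.1 CPM in WT to 34.0, 45.2 and 42.7 CPM in the knockout. Sirt1, a deacetylase that acts on PGC-1α, rose 1.36-fold (13.7 ± 0.993 CPM in WT and 18.6 ± 0.917 CPM in the knockout, n = 3, edgeR adjusted p = 0.0392). Crebbp, the histone acetyltransferase CBP that CREB and nuclear receptors recruit, rose 1.33-fold (38.4 ± 3.40 and 50.9 ± 2.83 CPM, edgeR adjusted p = 0.0422). Perm1 and Crebbp were called without knockout replicate 1, and in none of the other 5 fits without 1 library, and Sirt1 in 0 of the 6. With upper-quartile factors Crebbp missed the threshold (adjusted p 0.0524). Irf4, a factor that works with PGC-1α in brown fat and was singled out here after its values were seen, held 15.3, 26.3 and 14.4 CPM in WT and 158, 27.3 and 21.5 CPM in the knockout. Knockout replicate 1 stood apart, and the log2 fold change of 1.89 (edgeR adjusted p = 0.167) was 0.40 without it.

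Of 23 genes that act on Ppargc1a or its protein, 2 rose, 1 fell and 20 were not called (median 0.11). This is 13% called, beside 4.30% of all tested genes. Foxo3, a transcription factor held back by insulin, rose 1.87-fold (11.3, 13.7 and 10.03 CPM in WT and 24.9, 18.5 and 21.6 CPM in the knockout) at an adjusted p of 0.0171 in edgeR, and missed the threshold without WT replicate 1 or WT replicate 3 (highest adjusted p 0.0842). Fnip1, a partner of folliculin, rose by 0.59 on the log2 scale (adjusted p 0.0473 in edgeR). Leaving out WT replicate 2 kept its call, and leaving out any of the other 5 libraries lost it (highest adjusted p 0.167), as did upper-quartile factors (0.0524). Map2k6, a kinase that activates p38 MAP kinase, fell by 1.85 on the log2 scale (4.31, 1.92 and 3.95 CPM in WT and 1.32, 0.731 and 0.759 CPM in the knockout) at an adjusted p of 0.0377, and lost its call when any of WT replicates 1 and 3 or knockout replicates 2 and 3 was left out (highest adjusted p 0.138) and with limma-voom (0.0566). Without WT replicate 3, 0 of these 23 were called. Of 16 genes of the nuclear respiratory factors and of mitochondrial DNA upkeep, 0 were called in any of edgeR, DESeq2 and limma-voom, while 7 had an unadjusted p under 0.05, 4 higher and 3 lower (median 0.09), beside 22.6% of all tested genes at that level. The smallest p-values were those of Tefm, a mitochondrial elongation factor (log2 -0.32, edgeR adjusted p = 0.124), and Yy1, a zinc finger factor that works with PGC-1α (0.20, adjusted p = 0.132).

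Genes with PPAR response elements went both ways. Of 36 listed, 32 were tested, 2 rose, 1 fell and 29 were not called (median 0.07). Calls made up 9.38% of those tested, beside 4.30% of all tested genes. Pdk4, the kinase that shuts off pyruvate dehydrogenase, rose 3.06-fold (782, 1366 and 622 CPM in WT and 3617, 2808 and 2049 CPM in the knockout; adjusted p 0.0275 in edgeR). Angptl4, whose protein blocks lipoprotein lipase, rose 2.21-fold (102, 142 and 98.0 CPM in WT and 322, 211 and 222 CPM in the knockout; adjusted p 0.0194). Ucp3, a mitochondrial carrier related to Ucp1, fell by 0.77 on the log2 scale (135, 148 and 119.96 CPM in WT and 82.7, 89.9 and 64.5 CPM in the knockout; adjusted p 0.0196). All 3 had libraries that did not overlap. Ucp3, which skeletal muscle also makes, was the lowest in WT replicate 3 among the WT libraries, where the muscle markers were highest. The part of muscle RNA in the level of Ucp3 was not tested. Without WT replicate 1, 0 of the 32 were called, without WT replicate 3 Ucp3 alone was, Ucp3 was not called without WT replicate 2, and Pdk4 was not called without knockout replicate 2 (highest adjusted p of Pdk4 0.116). Robust fitting of edgeR also ended the calls of Pdk4 (adjusted p 0.104) and Angptl4 (0.0549), which left Ucp3.

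Of 27 tested oxidative genes that ERRs bind, 0 rose, 1 fell and 26 were not called (median -0.03). The share called was 3.7%, beside 4.30% of all tested genes. In 7 of the 27 every WT library lay above every knockout library, and in 1 the reverse (13.9% and 15.1% of all tested genes). An unadjusted p under 0.05 in edgeR was found for 3, 0 higher and 3 lower, beside 22.6% of all tested genes in both directions. The 1 call was Mb, the myoglobin of muscle (1.37, 2.66 and 5.64 CPM in WT and 0.440, 0.731 and 0.557 CPM in the knockout; adjusted p 0.0422), which was highest in the WT library with the most muscle marker RNA and kept its call when WT replicate 1 was left out but not when any of the other 5 libraries was. Without WT replicate 3 its log2 fold change was -1.80, and limma-voom did not call it (adjusted p 0.0943). The part of muscle RNA in the level of Mb was not tested. Slc25a4, the adenine nucleotide carrier of the inner mitochondrial membrane, held 477, 452 and 479 CPM in WT and 399, 397 and 383 CPM in the knockout (log2 -0.26). It missed the threshold in the main edgeR test (adjusted p 0.0560) but was called lower with upper-quartile factors (0.0440), DESeq2 (0.0194), limma-voom (0.0483) and robust fitting (0.0464), so the 1 ERR target that limma-voom called was Slc25a4 and not Mb. The other 25 lay above Slc25a4 and up to 0.16 (Vegfa, an angiogenic growth factor) on the log2 scale. Among 14 brown fat genes that PRDM16 raises, 0 were called with edgeR, with DESeq2 or with limma-voom. An unadjusted p under 0.05 was found for 1 of them, Eva1a (log2 0.71, edgeR adjusted p = 0.105), beside 22.6% of all tested genes at that level. Of 7 tested white fat genes that PRDM16 lowers, Lep, the hormone leptin, fell by 2.24 on the log2 scale (31.7, 19.6 and 62.5 CPM in WT and 7.49, 4.98 and 11.4 CPM in the knockout; adjusted p 0.0312) and 6 were not called. The 1 call is 14.3% of this short list, beside 4.30% of all tested genes. Lep kept its call when WT replicate 2 or knockout replicate 3 was left out, and lost it in the other 4 such fits (highest adjusted p 0.1002), with limma-voom (0.0576) and with robust fitting (0.114).

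**Figure D5:**
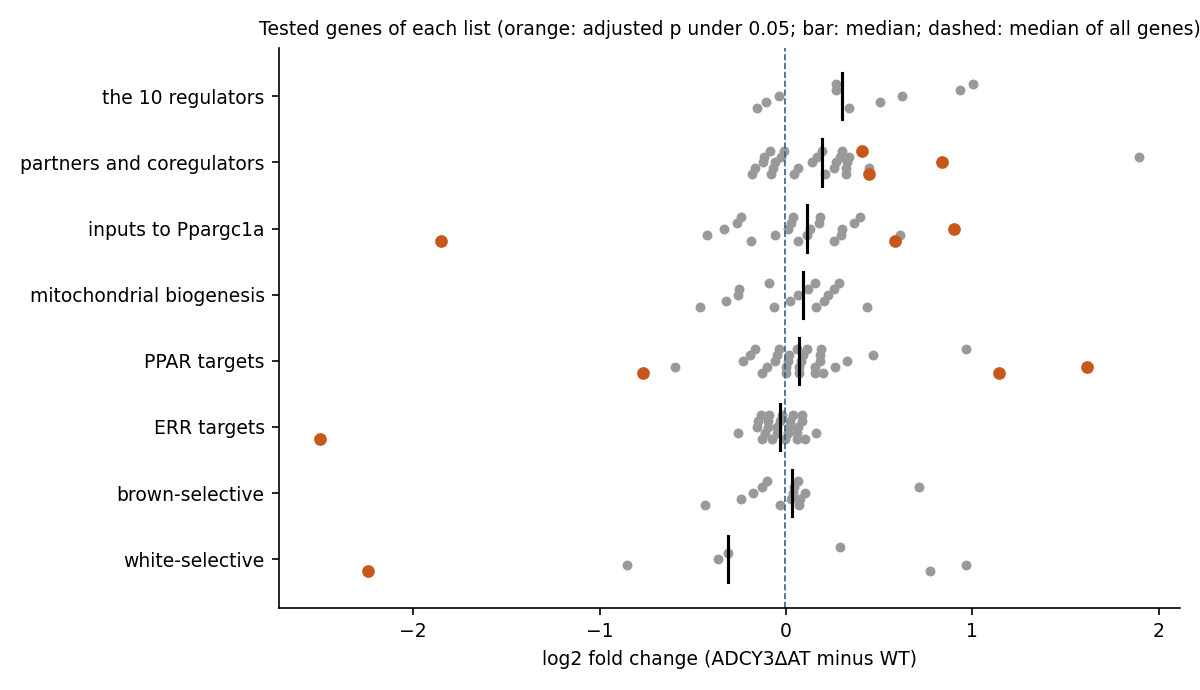
Log2 fold change (ADCY3∆AT minus WT, horizontal axis) of each tested gene in 8 lists, with called genes in orange, each list's median as a black bar and the median of all tested genes as a dashed line. The 10 regulators have a median of 0.30 and 0 calls, and the ERR targets other than Mb run from -0.26 (Slc25a4) to 0.16 (Vegfa).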

How the data were processed

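The authors deposited estimated counts (expected counts with 3 decimals), 1 column for each of 6 libraries. Salmon, StringTie, edgeR and the build GRCm38 are named, with no role, in the submitters' processing notes. A column belongs to the sample whose description holds its number, and symbols and exon lengths came from GENCODE M21, which gave a symbol for 54131 rows. The tissue is interscapular per the labels of the samples and inguinal per the series' design text. Estimated counts were rounded, genes were kept by filterByExpr (minimum count 10, minimum total 15), libraries were scaled by TMM, and genotypes were compared in R 4.3.3 with edgeR 4.0.16 (quasi-likelihood F test), called at an adjusted p under 0.05. The test was also run on simulated counts in which every gene had the same assumed variability. That setting does not measure its power or error for these genes. Levels between genes are CPM divided by the union of annotated exons, which depends on the annotation. Alternatives were other scalings, tests (DESeq2 1.42.0, limma 3.58.1), filters, a threshold of 0.10, a replicate block and leaving out each library. The members and lists were chosen with earlier results of these data known, and Wdnm1 of the white fat list matched no symbol. Named are all members, Adcy3, the called genes of each list (at most 3, ranked by p) or, in a list with 0 calls, its top 2 (for the brown fat list Eva1a and Zic1, the latter at log2 -0.43), the muscle marker with the highest level, Myl1 (53.5 ± 13.8 CPM in WT and 45.3 ± 1.91 CPM in the knockout), and the 4 genes most like Ppargc1a. Ldb1, Trmt112, Pparg, Irf4, Slc25a4, Vegfa and the family shares were added after values were seen. Summed CPM of the other marker lists ran, in WT and then in the knockout, from 624 to 703 and 657 to 690 (endothelium), 539.8 to 629 and 614 to 658 (mural cells), 275 to 425 and 238 to 399.96 (fibroblasts), 37.7 to 75.2 and 42.6 to 69.95 (macrophages), 2.22 to 3.16 and 2.04 to 3.06 (lymphocytes), 56.5 to 59.5 and 58.8 to 104 (Schwann cells, with Th at 0) and 805 to 1720 and 728 to 1379 (erythroid cells).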

Additional observations from a re-analysis of the deposited data

How the results depend on the processing

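The number of regulators called was 0 in edgeR with all 6 libraries, 2 with the Wald test of DESeq2, 3 without a filter on low counts, 2 at a threshold of 0.10, and 0 to 1 in the fits without 1 library. Over all genes, 616 were called, 377 higher and 239 lower (282 and 274 with upper-quartile factors), 993 with DESeq2, 1951 without the filter, 1375 at 0.10, 324 with the replicate block and 162 to 461 without 1 library. Without the filter the edgeR adjusted p of Ppargc1a fell to 6.73e-18 and that of Irf4 to 1.18e-68 (0.0609 and 0.167 in the main edgeR test). The cause was not tested, and counts without the filter should not be read as an equal alternative. Deviations from the genotype mean correlated at -0.0067, 0.0070 and -0.045 between same-numbered libraries over 14332 genes. Between differently numbered libraries the correlation ran from -0.057 to 0.058. No pairing by replicate number was seen, but these values cannot exclude one. With the replicate block 0 regulators, 0 of 29 partners and 0 ERR targets were called. The same fit called 3 PPAR targets, 2 inputs to Ppargc1a and 1 white-selective gene.

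Partners numbered 8 without the filter, 6 at 0.10 and 0 to 2 without 1 library. Inputs to Ppargc1a numbered 10 without the filter and 0 to 3 without 1 library. PPAR targets numbered 1 with robust fitting, 6 without the filter and 0 to 3 without 1 library. ERR targets numbered 2 with upper-quartile factors, DESeq2, robust fitting or at 0.10, 3 without the filter and 0 to 1 without 1 library. Brown-selective genes numbered 1 without the filter. White-selective genes numbered 2 with DESeq2, 0 with limma-voom or robust fitting, 5 without the filter and 0 to 1 without 1 library.

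Over the fits without 1 library, the log2 fold change ran from -0.10 to 0.88 for Esrrb, from -0.015 to 0.47 for Esrrg, from -0.27 to 0.13 for Prdm16, from -0.31 to 0.13 for Nrip1 and from -0.20 to 0.10 for Adcy3. The sign of Esrrb (-0.10) and Esrrg (-0.015) turned without knockout replicate 3, that of Prdm16 without WT replicate 2 (0.03) and knockout replicate 1 (0.13), that of Nrip1 without WT replicate 1 (0.10), knockout replicate 2 (0.04) and knockout replicate 3 (0.13), and that of Adcy3 without WT replicate 1 (0.10) and knockout replicate 1 (0.08). The signs of Ppargc1a, Ppargc1b, Pprc1, Ppara and Ppard could not turn in those fits, since their libraries do not overlap. Esrrb had the fewest counts of the 10 regulators, 13 to 55 per library.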
